A study of Mus musculus with 25 samples.

Results

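This section sets knockdown of BLM against knockdown of FANCM in mouse embryonic stem cells that received the fork-blocking protein Tus and carry an array of its binding sites, the Ter elements. The members were all junctions listed for these 2 groups, 2673 of the 11867 junctions in the series (22.5%). The siBLM group held 1347 junctions and the siFANCM group 1326, each from 3 samples. The comparison sets loss of a RecQ helicase against loss of a fork translocase.

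Both groups carried the genotype that the labels give as BRCA1del/exon11, so the BRCA1 deletion is shared by all cells compared here. Both had the 4-kb 1xGFP reporter with its Ter array in the ROSA26 locus, grew on mouse embryonic fibroblast feeders and received Tus, and differed in the small interfering RNA (siRNA), against BLM or against FANCM. Translocation junctions were captured 48 h after transfection by LAM-HTGTS, a sequencing method for translocations that extends a single primer on the bait by linear amplification. In this assay a Cas9 cut, here 30 kb from the reporter, is the bait, and every read runs across the bait end into the DNA joined to it (the prey). Cited for context are siLuciferase with Tus in BRCA1del cells, siFANCM with the vector that the labels call EV in BRCA1del cells, and siBLM and siFANCM with Tus in BRCA1flox/exon11 cells. The assay reads DNA joins, so the depth of either knockdown was not measured in these tables.

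BLM is a RecQ-family helicase that, with its partners, dissolves double Holliday junctions, rejects mismatched or premature strand invasion and takes part in the resection of DNA ends. FANCM is a DNA translocase of the Fanconi anemia pathway that binds branched DNA, drives the reversal of stalled forks and anchors the core complex, and it has a binding surface for the BLM complex. Tus is a bacterial protein that blocks a replication fork when bound to a Ter element. A blocked fork can be broken, and the exposed end can then join to the bait. Joins are called leftward here where the prey ran from the junction toward position 1 of the reporter, and rightward where it ran toward the polyA end.

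The reporter carries 6 Ter elements of 23 bases each. In the deposited coordinates, which are 1-based positions on the reporter and not on a genome build, Ter1 lay at 3048 to 3070, Ter2 at 3076 to 3098 and Ter3 at 3104 to 3126. The other triplet held Ter4 at 3166 to 3188, Ter5 at 3194 to 3216 and Ter6 at 3222 to 3244. An I-SceI site followed at 3260 to 3277, and the array window ran from 3024 to 3277. Within the window, both triplets are part of 116-bp copies of the same sequence. A join in the array was therefore assigned to a copy only where the read went on for at least 20 bp beyond the window, into unique sequence. Such joins are called placed.

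The bait end itself lies on mouse chromosome 6, beside ROSA26, and was read from the deposited reads. Its last 80 bases before the Cas9 cut are shown, 5′ to 3′ toward the cut, because the longest microhomologies that recurred at the array in both groups fall within them. The capitals mark the bases shared with a Ter element, first in leftward joins and then in rightward joins.
leftward: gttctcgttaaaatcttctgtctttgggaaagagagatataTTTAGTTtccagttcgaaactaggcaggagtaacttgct
rightward: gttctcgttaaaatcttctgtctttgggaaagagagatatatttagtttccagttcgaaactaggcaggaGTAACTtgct

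Read names divided the junctions among sequencing runs, here called A to D. The siBLM group had 589 junctions in run B, 593 in run C and 165 in run D. The siFANCM group had 686 in run A, 492 in run C and 148 in run D. Runs C and D held both groups and give the comparisons within a run, while runs A and B each held only 1 of the groups, where run and siRNA cannot be told apart. The siBLM libraries of runs C and D shared 13.2% of the smaller library's joins by position and ends, and the siFANCM libraries 8.45%, within the 2.83% to 16.4% shared by libraries of different groups. No read name or read sequence was repeated within either group. Nothing in the labels says whether the samples came from separate cultures, so p-values may measure technical spread. The tests on junction counts and the intervals cover counting error only.

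In both groups, which received Tus, most joins in the body of the reporter lay in the array. Of 908 joins in the body of the reporter, 727 (80.1%) lay in the array in siBLM cells, against 688 of 824 (83.5%) in siFANCM cells. Over all listed junctions, the array held 727 of 1347 in siBLM cells and 688 of 1326 in siFANCM cells. In EV cells with siFANCM, 1 of 468 listed junctions lay in the array, and only 5 lay in the body. The other 463 lay in the polyA region, the stretch from the last XbaI site at 3618 to 3928. The series held no EV group with siBLM, so this comparison exists for siFANCM only. The I-SceI site, whose enzyme is not among the agents labelled for these cells, held 3 joins in siBLM cells and 1 in siFANCM cells. The array share differed by 0.652 percentage points between siBLM and siFANCM cells as the mean of runs C and D, with a 95% interval of −5.85 to 7.09. Run C gave −7.32 points and run D 8.62 points, siBLM minus siFANCM.

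A family of 13 shares was compared, each by an exact test of a common odds ratio with run as the stratum, and 1 of them (7.69%) passed a Benjamini-Hochberg adjusted p of 0.05. That share was the proportion of array joins that ran rightward. Another 1 had an unadjusted p below 0.05, the left-of-array share of leftward joins. For 6 of the 13, runs C and D agreed in direction. Over all 3 runs a group, the siBLM and siFANCM shares overlapped in every one of the 13, and the smallest p that an exact permutation test of 3 against 3 can give is 0.1.

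Rightward joins made up a larger part of the array joins in siBLM cells than in siFANCM cells within the shared runs. In siBLM cells the share was 18.4% in run B (66 of 358), 14.9% in run C (43 of 288) and 16% in run D (13 of 81). In siFANCM cells it was 18.6% in run A (64 of 344), 6.23% in run C (17 of 273) and 4.23% in run D (3 of 71). The 3 siBLM libraries lay close together, whereas run A of siFANCM lay above all of them and the other siFANCM libraries far below. The mean difference in runs C and D was 10.3 points, with siBLM cells higher (95% interval 4.72 to 15.8), with a common odds ratio of 2.90 (1.70 to 4.95) and an adjusted exact p of 0.00066. Over all runs it averaged 16.5 ± 1.79% in siBLM cells and 9.69 ± 7.79% in siFANCM cells (SD, n = 3 each), with an exact permutation p of 0.4. With all runs pooled the difference was 4.57 points (adjusted Fisher's exact p = 0.103), and without run A it was 11 points (adjusted Fisher's exact p = 2.9e-06). The pooled difference was 2.97 points without run B, 1.85 without run C and 3.75 without run D, with adjusted Fisher's exact p of 0.435, 0.791 and 0.304. In run D alone, the shared runs without run C, it was 11.8 points with an adjusted exact p of 0.204. Among placed joins alone the difference within shared runs was 7.47 points, with an adjusted exact p of 0.151. For each of these alternatives the adjustment kept every other share at its p within runs C and D. Placement itself was uneven. In run C it kept 22 of 43 rightward joins in siBLM cells and 12 of 17 in siFANCM cells, against 76.7% and 76.6% of leftward joins. In run D it kept 7 of 13 and 1 of 3 rightward joins, in the same order of groups.

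**Figure D1:**
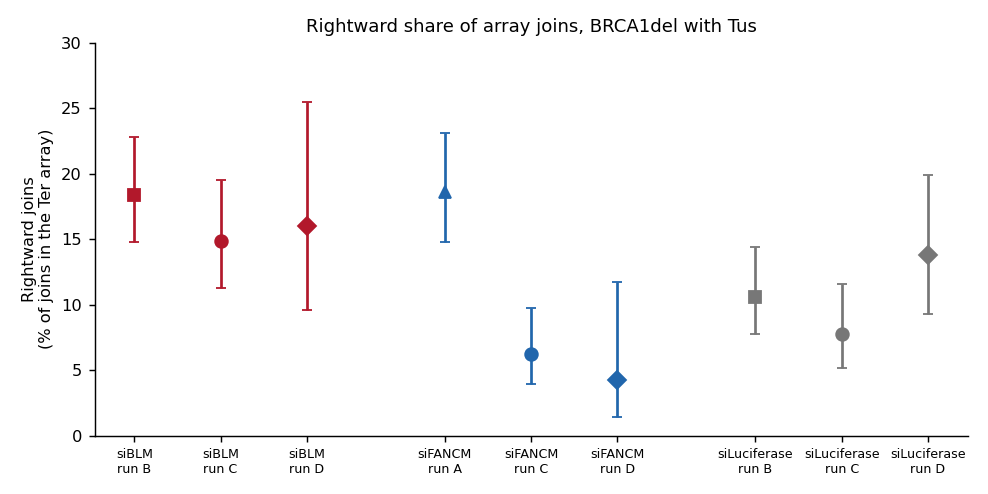
Rightward joins as a percentage of all array joins (y axis) in each library of BRCA1del cells with Tus (x axis, siBLM, siFANCM and siLuciferase by run). Points are the measured shares and bars the Wilson 95% intervals for counting error. In runs C and D the siBLM points lie at 14.9% and 16%, above the siFANCM points at 6.23% and 4.23%, while siFANCM in run A lies at 18.6%.

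Control cells stood between the groups in the shared runs. With siLuciferase the rightward share was 10.6% in run B, 7.78% in run C and 13.8% in run D, averaging 10.7 ± 2.99% (SD, n = 3). In BRCA1flox/exon11 cells, siBLM gave 8.96% in run C and 7.69% in run D, against 4.72% and 9.73% with siFANCM. The difference there was 1.10 points (interval −3.34 to 5.23). The odds ratios of the genotypes were compared by a Wald test on the junction counts, and the adjusted p was 0.236. None of the 13 such comparisons between genotypes passed that test after adjustment, and 2 had an unadjusted p below 0.05.

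Rightward joins from Ter4 to Ter6 made up a smaller part of all rightward array joins in siBLM cells, 57 of 122 (46.7%), against 56 of 84 (66.7%) in siFANCM cells, at the deposited positions. By run the shares were 48.5%, 41.9% and 53.8% in siBLM runs B, C and D, and 68.8%, 58.8% and 66.7% in siFANCM runs A, C and D, the last from 3 joins. The groups did not overlap, as in 4 of 12 combinations of stretch and orientation over all array joins (33.3%), and the exact permutation p was 0.1, the smallest possible. This stretch was picked out after its values were seen, and an unplaced join can belong to either copy. Among placed rightward joins, 52 of 65 lay there in siBLM cells and 50 of 61 in siFANCM cells, and the groups overlapped. Placement needs a read that reaches unique sequence and so favours rightward joins of this triplet. Ter6, the element nearest the I-SceI site, held 27 rightward joins in siBLM cells and 31 in siFANCM cells when unplaced joins were counted as deposited. Only 53.3% of rightward array joins were placed in siBLM cells, against 72.6% in siFANCM cells. The placement rule asks that a rightward join in the first triplet be read through the rest of the array. From the end of Ter1 to the end of Ter3, 5 of 40 rightward joins were placed in siBLM cells and 5 of 19 in siFANCM cells. Read length at its median was 268 bases in siBLM cells and 265 bases in siFANCM cells. Its part in the difference in placement was not tested. Among the 81 position and orientation combinations that siBLM cells used rightward and the 64 that siFANCM cells used, 34 were shared, which is 42% and 53.1% of each list.

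Within a Ter element, base 5 held more rightward joins than any other base in both groups. It had 20 of the 103 such joins inside elements in siBLM cells and 10 of 74 in siFANCM cells. Bases 1 to 8 of the element held 53 of the 103 in siBLM cells, and 30 of the 74 in siFANCM cells. Inside any Ter element lay 84.4% of rightward and 69.6% of leftward array joins in siBLM cells. The same shares were 88.1% and 72.5% in siFANCM cells, while the elements make up 54.3% of the window.

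Leftward joins, the larger class, peaked at the first Ter element in both groups. There were 605 leftward array joins in siBLM cells and 604 in siFANCM cells. Ter1 held 31.9% of them in siBLM cells (193) and 30.1% in siFANCM cells (182). The 5 most used positions of either group all lay inside Ter1 and all ran leftward. Position 3066 led with 14 joins in siBLM cells and 13 in siFANCM cells, and position 3068 had 14 and 11, in the same order of groups. Of the 160 leftward combinations in siBLM cells and the 169 in siFANCM cells, 136 were used in both, which is 85% and 80.5%.

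**Figure D2:**
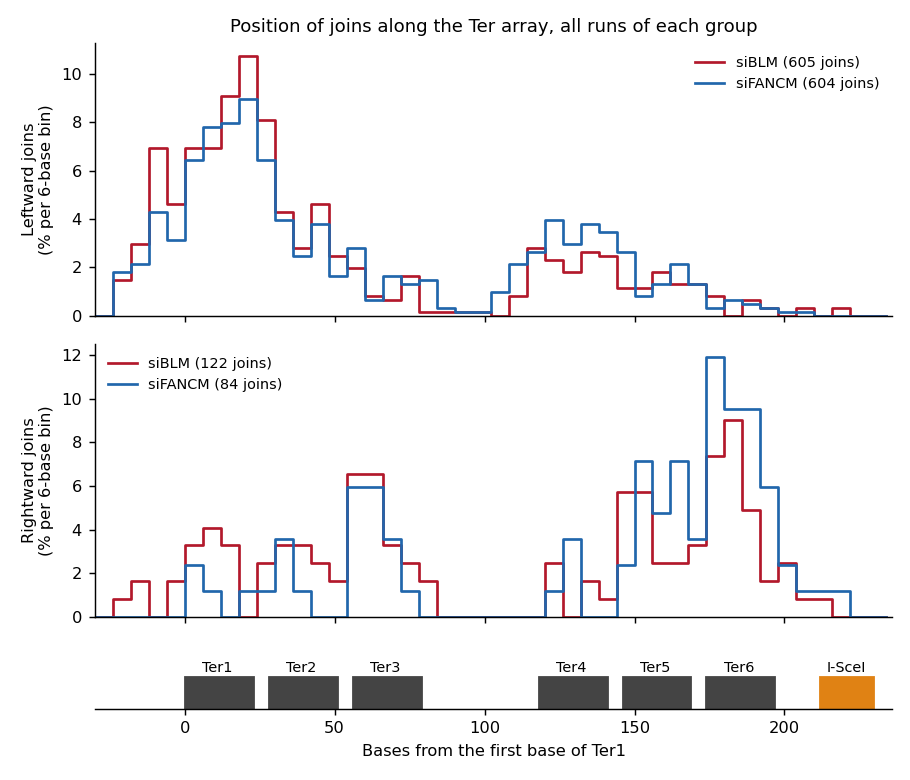
Joins along the array by orientation, as a percentage of the leftward (top) or rightward (middle) array joins of each group in 6-base bins, against the distance in bases from the first base of Ter1, with the Ter elements and the I-SceI site mapped at the bottom. All runs and unplaced joins are included. Leftward joins of both groups peak at Ter1, and rightward joins of both reach their highest bins at Ter6.

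Among placed array joins, 2 of 12 combinations of stretch and orientation (16.7%) had siBLM and siFANCM runs that did not overlap, and both were leftward. These stretches were not among the 13 shares and were chosen for description after their values were seen. The 24 bases before Ter1 held 18.8%, 19.7% and 28.6% of placed leftward joins in siBLM runs B, C and D, against 16.1%, 13.8% and 11.6% in siFANCM runs A, C and D. The gap between the triplets held 1.63%, 1.60% and 0% in those siBLM runs, against 4.48%, 4.59% and 6.98% in those siFANCM runs. The siBLM libraries were all higher before Ter1 and all lower between the triplets, in each case with the smallest exact permutation p possible, 0.1. Both stretches share a denominator, and the counts behind the gap were 7 of 482 joins in siBLM cells and 22 of 462 in siFANCM cells. Placement of a leftward join needs a read that reaches left of the array, and so favours joins near Ter1.

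The first-Ter share, which adds the flank before Ter1 to Ter1, did not pass the test. In siBLM cells 53.1%, 60.1% and 71.4% of placed leftward array joins lay at or before the end of Ter1 in runs B, C and D. In siFANCM cells 46.2%, 60.2% and 39.5% did so in runs A, C and D. The difference rested on run D, where 35 of 49 joins in siBLM cells stood against 17 of 43 in siFANCM cells, whereas run C differed by −0.0977 points. The mean of both runs was 15.9 points (interval 4.63 to 25.7), while the exact test, which weights the larger run more, gave an adjusted p of 0.435. With the limit moved to the end of Ter3, 179 of 188 and 46 of 49 placed siBLM joins were included. In siFANCM cells 172 of 196 and 37 of 43 were, and the adjusted p was 0.0356. These shares hold for placed joins, which leave out many joins of the distal triplet. Ter4 to Ter6 held 18.8% of all leftward array joins in siBLM cells and 25.3% in siFANCM cells at the deposited positions. Among placed leftward joins the stretch held 6.43% and 10.6%.

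Leftward joins to the left of the array lie in the reporter before the first Ter repeat. They numbered 55, 66 and 13 in siBLM runs B, C and D, and 40, 29 and 22 in siFANCM runs A, C and D. As a share of leftward body joins they were 15.7%, 21.0% and 16% in siBLM cells, against 12.4%, 10.1% and 24.4% in siFANCM cells. The difference was 10.9 points in run C and −8.40 points in run D. The common odds ratio was 1.62 (1.10 to 2.38), with an exact p of 0.0158 and an adjusted p of 0.103. Leaving out run D, 66 of 314 joins in siBLM cells stood against 29 of 288 in siFANCM cells (adjusted exact p = 0.0014).

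These joins lay close to the array in both groups. The median distance to the array was 30.0, 41.5 and 287 bases in siBLM runs B, C and D, and 58.0, 51.0 and 147.5 bases in siFANCM runs A, C and D. Within 74 bases of the array lay 80 of 134 such joins in siBLM cells and 53 of 91 in siFANCM cells. Rightward joins left of the array, from 3 to 19 joins a library, had median distances of 1464.5, 262.5 and 1158.5 bases in siBLM runs B, C and D. The medians were 971, 1298 and 281 bases in siFANCM runs A, C and D. Over all runs, their median distance was 1155 bases in siBLM cells and 1065 bases in siFANCM cells. They were 24.7%, 10.8% and 23.5% of all joins left of the array in siBLM runs B, C and D. In siFANCM runs A, C and D they were 32.2%, 32.6% and 12%. The runs disagreed in direction, at −21.7 points in run C and 11.5 in run D, and the adjusted p was 0.248.

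No share of the outer parts of the reporter passed the test within shared runs. Joins right of the I-SceI site made up 1.87% of body joins in siBLM cells (17 of 908) and 1.09% in siFANCM cells (9 of 824), with an adjusted p of 0.791 within shared runs. In the polyA region, 42.6% of joins ran rightward in siBLM cells and 43.6% in siFANCM cells (adjusted exact p = 1.0, interval of the difference −11.4 to 8.50 points). The body share of all listed junctions was 74.9%, 62.1% and 60% in siBLM runs B, C and D. It was 59.5%, 64.8% and 65.5% in siFANCM runs A, C and D. Within shared runs the difference in body share was −4.16 points (interval −10.1 to 1.92), with an adjusted exact p of 0.435. With all runs pooled the difference was 5.27 points, of the opposite sign (Fisher's exact p = 0.00458 before adjustment). The adjusted Fisher's exact p was 0.0298, with every other share kept at its p within shared runs. An adjustment over the pooled p of all shares was not run. Adjusted in the same way, the pooled difference passed the threshold with all runs and without run C (11.1 points, adjusted Fisher's exact p = 5.1e-05). It also passed without run D (6.73 points, adjusted Fisher's exact p = 0.00419). Run B, held by siBLM alone, had the highest body share of the 6 libraries, and run A, held by siFANCM alone, the lowest.

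**Figure D3:**
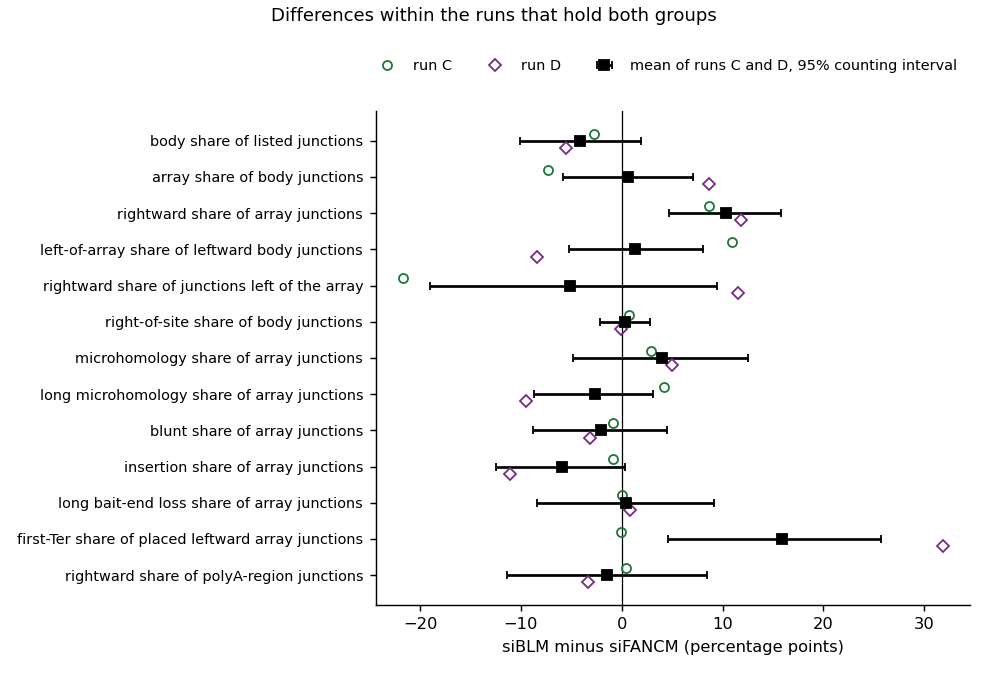
Differences between siBLM and siFANCM cells (x axis, percentage points, siBLM minus siFANCM) for the 13 shares (y axis). Circles and diamonds are runs C and D, squares their mean, and bars the 95% interval from counting error. The rightward share of array joins lies above 0 in both runs, whereas the left-of-array share and the rightward share left of the array have runs on opposite sides of 0.

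The microhomology share of array joins varied more between the runs of a group than between the groups within a run. Microhomology is a stretch of bases shared by both joined ends, used by alternative end joining, and it was counted from 2 bp. It was present in 39.4%, 34.5% and 54.3% of joins in siBLM runs B, C and D. In siFANCM runs A, C and D it was present in 33.8%, 31.6% and 49.3%. Run D stood highest in both groups. The share was 3.95 points higher in siBLM cells within shared runs (interval −4.80 to 12.5, adjusted exact p = 0.629), and both runs had that direction. Controls with siLuciferase had 43.6%, 42.6% and 37.5% in runs B, C and D, so run D stood lowest there. They averaged 41.2 ± 3.27% (SD, n = 3).

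Microhomology of 4 bp or more was found in 68 of 726 joins in siBLM cells (9.37%) and in 55 of 686 in siFANCM cells (8.02%). Run D of siFANCM had 12 of 71 such joins, against 6 of 81 in siBLM cells of that run, while run C had 31 of 287 in siBLM cells and 18 of 272 in siFANCM cells. The adjusted p was 0.791. Blunt joins, with neither shared nor added bases, made up 22.1%, 23.0% and 12.3% in siBLM runs B, C and D. They made up 25.9%, 23.9% and 15.5% in siFANCM runs A, C and D. The difference within shared runs was −2.02 points (interval −8.79 to 4.54, adjusted exact p = 0.843).

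**Figure D4:**
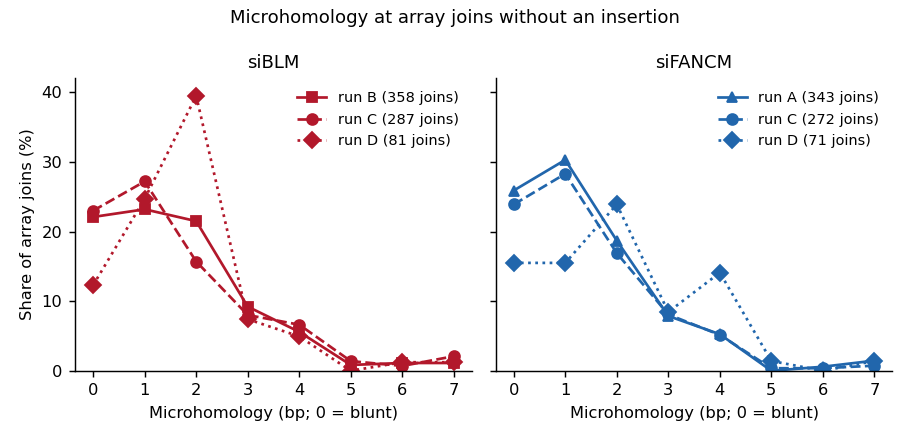
Length of microhomology (x axis, bp, 0 for blunt joins) against the share of array joins with a called structure (y axis, percent) for the 3 runs of siBLM (left) and of siFANCM (right), insertions left out of the lines and kept in the totals. Run D peaks at 2 bp in both groups, at 39.5% in siBLM cells and 23.9% in siFANCM cells, and siFANCM in run D has a further rise at 4 bp.

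Both groups used ta and tt most often among microhomologies of at least 2 bp. The dinucleotide ta was used 42 times in siBLM cells and 30 times in siFANCM cells, and tt 32 times in siBLM cells and 41 times in siFANCM cells. The tetramer actt was used 15 times in siBLM cells and 17 times in siFANCM cells. The 7-base stretch capitalised in the leftward line above was used in 10 siBLM joins and 7 siFANCM joins, spread over 5 Ter elements in each group, with 4 of the siBLM joins and 2 of the siFANCM joins at Ter1. This stretch occurs once in the bait and ends 32 bases from the cut, so each of these joins had by definition lost 32 bases. The 6-base stretch of the rightward line was used in 6 siBLM joins and 3 siFANCM joins. It too occurs once in the bait and ends 4 bases from the cut, which fixes the loss at 4 bases. Since the Ter elements share one sequence, a bait stretch that matches one element can match the others too.

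Insertions, bases that belong to neither end, were found at 55, 44 and 7 array joins in siBLM runs B, C and D, and at 34, 44 and 14 in siFANCM runs A, C and D. As shares these were 15.4%, 15.3% and 8.64% in siBLM cells, against 9.91%, 16.2% and 19.7% in siFANCM cells. The difference within shared runs was −5.96 points (interval −12.5 to 0.373, adjusted exact p = 0.553). A single added base was found at 38 of 106 insertions in siBLM cells and 36 of 92 in siFANCM cells. The longest insertion was 81 bases in siBLM cells and 76 bases in siFANCM cells. Of insertions with 12 or more bases, 2 of 13 in siBLM cells and 0 of 12 in siFANCM cells held a 12-base match to the reporter.

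Loss of bases from the Cas9-cut bait end varied more between the runs of a group than between the groups within a run. The end was intact in 21.8%, 17.1% and 12.3% of array joins in siBLM runs B, C and D. In siFANCM runs A, C and D it was intact in 20.1%, 15.8% and 9.86%. In both groups run D had the smallest intact share. At least 10 bases were lost in 44.4%, 52.6% and 54.3% of siBLM joins and in 43.4%, 52.6% and 53.5% of siFANCM joins, in the same order of runs. The difference within shared runs was 0.420 points (interval −8.35 to 9.19, adjusted exact p = 1.0).

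**Figure D5:**
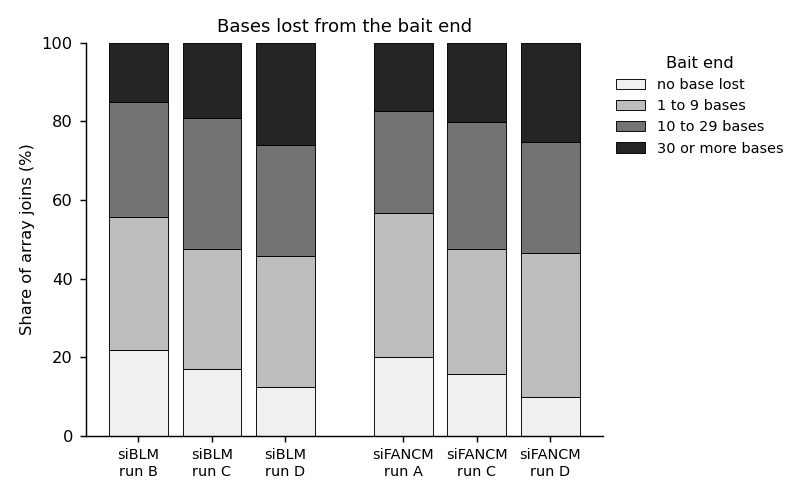
Bases lost from the bait end at array joins, as stacked shares of joins (y axis, percent) for each library (x axis, siBLM left, siFANCM right). The intact share is 17.1% in siBLM cells and 15.8% in siFANCM cells of run C, and 12.3% and 9.86% in the same groups of run D.

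The bait ends used most were also shared. An intact end was used 137 times in siBLM cells and 119 times in siFANCM cells, and an end short by 3 bases 57 times in siBLM cells and 64 times in siFANCM cells. An end short by 7 bases was the third most used in siBLM cells, with 46 joins against 25 in siFANCM cells, a difference picked out after the values were seen and given without a test. By orientation, leftward joins had lost a median of 10 bases in siBLM cells and 9.0 in siFANCM cells. Rightward joins had lost a median of 6.0 bases in siBLM cells and 6.5 in siFANCM cells. By run, the leftward medians were 8, 12 and 15 bases and the rightward medians 6, 7 and 4 bases in siBLM runs B, C and D. In siFANCM runs A, C and D the leftward medians were 8, 10 and 13 bases, and the rightward medians 6, 16 and 10 bases. Run C of siFANCM thus had the larger median rightward, and run A held 64 of the 84 rightward joins of that group.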

How the data were processed

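The authors deposited 1 table per group, pooled over its samples, with 1 row per junction. Its position columns and strand, held here as scores and other values and not as counts, are used as deposited. The submitters' processing notes name Bowtie2 and mm9, while filters and duplicate removal are not given in the sources used here. No scaling was applied.

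The bait and reporter were rebuilt from all 11867 reads by voting. Deposited positions up to the end of the first repeat copy lie 1 base below the rebuilt sequence, and at least 95.72% of called joins from shortly before the array to the last XbaI site then fell exactly at the deposited position. The offset was itself taken as the most frequent shift of these joins, so this share is not an independent check of it. Structure was called from a 10-base bait seed and a 12-base prey seed, for 99.71% of junctions, and the caller and tests were checked on simulated data. The run is a field of the read name. Nothing ties a run to a labelled replicate, although each group has as many runs as samples. Libraries of the series held 148 to 933 junctions.

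Shares were compared by the exact conditional test within runs C and D (two-sided), with Wilson intervals for single shares and Newcombe intervals joined over runs for differences. Benjamini-Hochberg adjustment ran over the 13 shares. For an alternative setting only the p of the share concerned was replaced, and the other shares kept their main p. The exact permutation test (two-sided) used all runs. Alternatives changed runs, duplicates, window, placement and thresholds. The members and lists were chosen with earlier results of these data known. Sites named are each Ter element and the stretches between, the I-SceI site, the 5 most used positions and microhomologies per group, and the longest microhomologies and insertions. Software was Python 3.11.15, SciPy 1.17.1, pandas 2.3.3, NumPy 2.4.6 and Matplotlib 3.10.9.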

Additional observations from a re-analysis of the deposited data

How the results depend on the processing

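All values are siBLM minus siFANCM in percentage points, and 97 of 141 alternatives of the 13 shares kept direction and side of the threshold. The microhomology and blunt shares of array joins kept both in 24 of 26, the exceptions being microhomology from 3 bp (−3.21) and the blunt share over the Ter span without the I-SceI site (0.280). For these shares the side kept was that of not passing. Counting each position, orientation, far end and bait end once per library changed the counts of the body share and of the polyA-region share only. For every other share that alternative repeats the main result. The rightward share of array joins (10.3) kept its direction throughout, but not its adjusted p, with all runs pooled (4.57) or with placed joins only (7.47). Pooling all runs turned the body share to 5.27, the array share to −3.43, long microhomology to 1.35 and insertions to 1.19. Bait-end loss from 1 base (−1.88) or from 30 bases (−0.242) turned its direction, as did counting each position once for the rightward share of the polyA region (4.48). The first-Ter share passed the threshold with the limit at Ter3 (7.64). The causes were not tested.

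Leaving out 1 run at a time, in the shared runs or in the pooled junctions, gave the following ranges. The rightward share of array joins ran from 1.85 (without run C) to 11.8, and its adjusted p was above the threshold without run C in the shared runs and in the pooled junctions without run B, C or D. The body share ran from −5.54 to 11.1, the array share from −7.32 to 8.62, and the left-of-array share from −8.40 to 10.9. The rightward share left of the array ran from −21.7 to 11.5, the share right of the I-SceI site from −0.0208 to 0.911, and long microhomology from −9.49 to 4.18. Insertions ran from −11.1 to 2.67, bait-end loss from −4.01 to 4.88, the first-Ter share from −0.0977 to 31.9, and the rightward share of the polyA region from −3.30 to 0.633. Past the threshold without run D were the left-of-array share (10.9) and the rightward share left of the array (−21.7), and without run C the first-Ter share (31.9). Each adjusted p here kept every other share at its p within shared runs. In the pooled junctions the body share passed with the opposite sign with all runs (adjusted Fisher's exact p = 0.0298), without run C (11.1) and without run D (6.73). There the left-of-array share also passed without run B (7.02) or run D (6.90), and the first-Ter share without run B (10.9). No paired analysis was possible because the tables carry no replicate number from the labels. Runs C and D pair the groups by run, and that pairing is already the stratum of the main test. Depth limits run D most, with 165 siBLM and 148 siFANCM junctions.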
